A study of Mus musculus with 24 samples.

Results

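The transcripts of 9 core circadian clock genes, the activators Arntl, Clock and Npas2 and the repressors Per1, Per2, Per3, Cry1, Cry2 and Ciart, were followed in the livers of mice that overexpressed L2d13 and of wild-type (WT) mice. The 9 genes were chosen by name, with earlier results of these data known. All of them were found by gene identifier among the 18171 genes of the expression table. RNA sequencing of 24 liver libraries gave that table, with expression in FPKM (fragments scaled to transcript length and to the mapped total). The mice were C57BL/6, and 12 libraries came from each genotype. L2d13 is the construct that the labels write as L2 delta13, without spelling L2 out. The sample names carry the digit 4 or 2 in each genotype, so that 4 groups of 6 libraries result, called here set 4 L2d13, set 4 WT, set 2 L2d13 and set 2 WT. What the digit stands for, the promoter of the transgene, the age of the mice and the hour at which livers were taken are not given in the sources used here. Running numbers in the sample names form a separate block in each group, so a genotype within a set cannot be told apart from whatever those numbers follow. No label states that each library is from its own animal. A p-value here thus sets a difference only against the spread among these samples, some of which may be technical, and may not extend to other mice.

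In mammals the circadian clock is a feedback loop of transcription. BMAL1, the product of Arntl, pairs with CLOCK or its relative NPAS2 and binds E-box elements to switch on the Per and Cry genes, whose proteins enter the nucleus and repress that same pair. A second loop runs through the REV-ERB receptors (Nr1d1, Nr1d2), which repress Arntl, Npas2 and Cry1, against the activating ROR receptors. Liver transcripts of these genes normally rise and fall over the day, so a level read at an unstated hour shows a phase and an amplitude together.

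Some facts of the whole series bear on these genes. FPKM holds no read totals, so the depth of each library is unknown. The FPKM value of a single fragment could be compared between libraries, and it was 1.03 to 1.28 times the common value in 6 of them, against 0.954 to 1.017 in the other 18. These 6 were 1 L2d13 (set 2 replicate 3) and 5 WT (set 2 replicate 6 and set 4 replicates 9 to 12). Calls over both sets or within a set that were lost within the 18 are given both ways for the members. Of set 4 WT only replicates 7 and 8 are among the 18, so set 4 was compared there as 6 against 2 libraries. The hepatocyte markers Alb, Apoa1, Ttr, Tf and Fgb, of which 4 were in the table, summed to 37625 to 48759 FPKM in set 4 L2d13, 47195 to 51881 in set 4 WT, 25229 to 48834 in set 2 L2d13 and 43821 to 52016 in set 2 WT, so that the lowest sums were in L2d13. Over both sets 25.9% of all genes tested were called higher in L2d13 and 4.86% lower. The counts of markers called are to be read against these shares. Of 5 sinusoidal endothelial markers 4 were called higher in L2d13, and they summed to 28.3 to 64.7 FPKM in set 4 L2d13, 19.5 to 64.4 in set 4 WT, 71.1 to 144.8 in set 2 L2d13 and 27.5 to 78.5 in set 2 WT. Of 5 Kupffer cell markers 2 were called higher, with sums of 31.9 to 122.5 FPKM in set 4 L2d13, 16.4 to 75.2 in set 4 WT, 65.9 to 138.5 in set 2 L2d13 and 45.7 to 110.4 in set 2 WT. Stellate cell markers, of which 1 of 5 was called higher, summed to 55.8 to 93.4 FPKM in set 4 L2d13, 57.0 to 80.8 in set 4 WT, 116.3 to 229.6 in set 2 L2d13 and 66.5 to 123.6 in set 2 WT. Set 2 L2d13 also held the highest sums of exocrine pancreas (42.6 FPKM, at most 8.01 elsewhere), cholangiocyte (123.3, at most 74.4), B cell (14.3, at most 3.07) and erythroid markers (1674, at most 867). Of the hepatocyte markers 1 was called lower, and of the erythroid markers 1. These sums thus differ between the L2d13 sets as well as between genotypes. The part of these differences in the results was not tested. In whole tissue, fewer cells of a type and less RNA per cell cannot be told apart.

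Promoters of the members show which of the clock's elements lie near their starts, and the windows with such an element are printed for 5 genes that the results return to. RefSeq windows on GRCm38.p6, from 250 bases before to 50 bases after an annotated start, were found for 8 of the 9 members (12 windows), Per2 being the exception. They were searched on both strands for the E-box CACGTG, the D-box TTATGTAA, the ROR and REV-ERB half-site AGGTCA and the cAMP response element TGACGTCA, each printed in capitals where it occurs (TGACCT is AGGTCA on the other strand). The order is Per1 (chr11:69098699-69098998, plus strand), Cry1 (chr10:85185005-85185304, minus strand), Ciart (chr3:95882179-95882478, minus strand), Per3 (chr4:151044616-151044915, minus strand) and Arntl (chr7:113207261-113207560, plus strand), each 5′ to 3′ on the strand of its gene.
Per1: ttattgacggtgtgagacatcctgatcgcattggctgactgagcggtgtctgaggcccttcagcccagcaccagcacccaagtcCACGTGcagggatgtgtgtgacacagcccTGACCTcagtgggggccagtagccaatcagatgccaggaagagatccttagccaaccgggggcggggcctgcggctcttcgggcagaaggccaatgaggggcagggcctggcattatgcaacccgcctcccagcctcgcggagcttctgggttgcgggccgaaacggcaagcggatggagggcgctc
Cry1: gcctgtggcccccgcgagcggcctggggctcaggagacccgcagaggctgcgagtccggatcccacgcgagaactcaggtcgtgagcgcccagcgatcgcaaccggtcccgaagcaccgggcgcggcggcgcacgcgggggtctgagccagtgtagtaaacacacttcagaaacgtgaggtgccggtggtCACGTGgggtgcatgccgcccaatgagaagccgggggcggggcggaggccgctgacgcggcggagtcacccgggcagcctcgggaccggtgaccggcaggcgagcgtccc
Ciart: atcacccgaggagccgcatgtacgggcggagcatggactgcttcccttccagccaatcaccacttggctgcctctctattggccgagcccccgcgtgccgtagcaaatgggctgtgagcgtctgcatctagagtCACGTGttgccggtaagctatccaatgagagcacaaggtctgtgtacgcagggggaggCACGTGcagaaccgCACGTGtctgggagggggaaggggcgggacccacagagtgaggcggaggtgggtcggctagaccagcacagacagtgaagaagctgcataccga
Per3: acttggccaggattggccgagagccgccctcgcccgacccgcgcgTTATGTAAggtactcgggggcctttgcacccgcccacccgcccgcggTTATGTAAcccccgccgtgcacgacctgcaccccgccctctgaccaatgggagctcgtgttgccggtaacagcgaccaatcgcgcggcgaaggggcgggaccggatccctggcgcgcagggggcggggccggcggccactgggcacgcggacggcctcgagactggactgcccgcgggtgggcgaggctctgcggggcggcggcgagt
Arntl: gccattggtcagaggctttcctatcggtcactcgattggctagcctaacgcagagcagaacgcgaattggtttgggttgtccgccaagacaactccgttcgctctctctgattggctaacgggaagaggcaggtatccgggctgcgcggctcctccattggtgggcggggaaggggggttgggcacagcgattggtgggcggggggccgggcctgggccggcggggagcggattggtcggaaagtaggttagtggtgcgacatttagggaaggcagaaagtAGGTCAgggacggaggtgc
The E-box stood once in Per1, 166 bases upstream of the start, once in Cry1, 60 bases upstream, and at 3 places in Ciart, 116, 58 and 44 bases upstream. It occurs in 7.15% of all 32851 windows of this length in the table. Per3 held 2 D-boxes, 205 and 158 bases upstream, and a D-box occurs in 0.938% of all windows. The half-site AGGTCA was found in Arntl, 32 bases downstream, in Per1, 137 bases upstream, and in a window of Clock, and in 16.3% of all windows. The cAMP response element was in no member window and in 1.79% of all windows. These are matches of letters in short windows and show neither binding nor its absence.

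Over both sets, 2 repressors fell and 1 rose in L2d13 livers: Per1 fell 2.22-fold, Cry1 fell 1.33-fold and Cry2 rose by 0.59 on the log2 scale. Among all genes tested, 4.86% were called lower and 25.9% higher in this comparison. The other 5 tested members passed no threshold in this comparison. Cry1 differed by -0.91 on the log2 scale in set 4 and by 0.09 in set 2. Its call over both sets was lost within the 18 libraries. Between the sets of L2d13 livers, the activators Arntl and Npas2 and the repressor Cry1 were lower in set 4 than in set 2, a direction in which 5.51% of all genes were called. Of the 9 members 8 passed the filter on low values (an FPKM of 1 or more in 6 or more libraries), which Per3 did not, and these were tested together with all 10532 such genes by limma on log2(FPKM + 1). Folds are on that scale, and a gene is called at an adjusted p under 0.05.

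**Figure D1:**
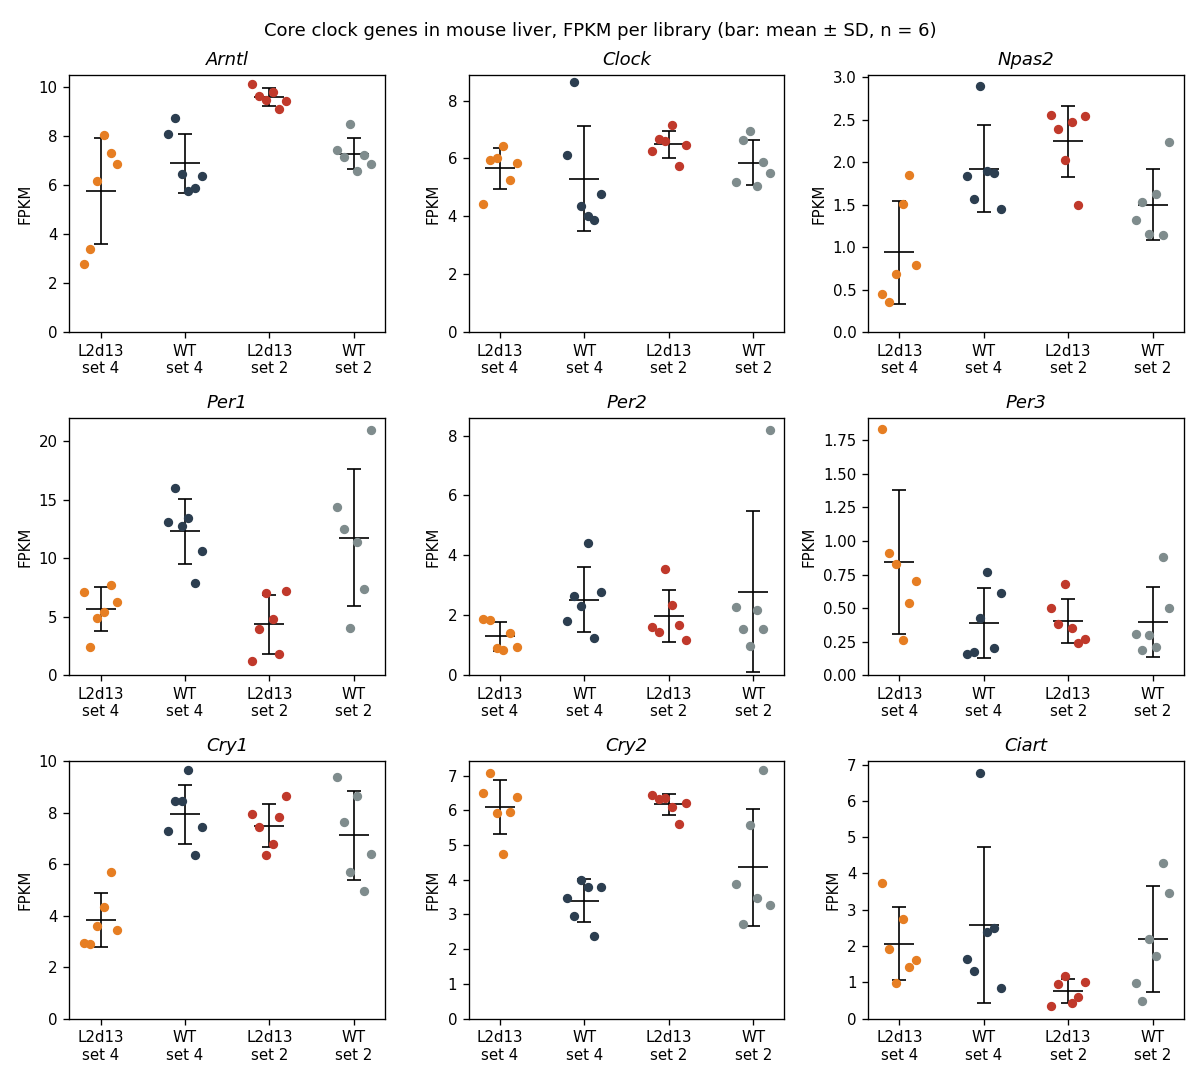
FPKM of the 9 members in each library, by group, with 6 points per group and the mean ± SD as bars. All 12 L2d13 points of Per1 lie below, and all 12 of Cry2 above, the WT mean of their set, and the L2d13 points of Arntl, Npas2 and Cry1 lie lower on average in set 4 than in set 2.

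The levels of the members spanned more than an order of magnitude. On the FPKM scale, which is per length, Per1 had the highest mean in both WT groups, with 12.3 ± 2.75 in set 4 WT and 11.8 ± 5.86 in set 2 WT (SD, n = 6 each). In L2d13 livers other members led. Cry2 was highest in set 4 L2d13 (6.10 ± 0.784, SD, n = 6), and Arntl in set 2 L2d13 (9.59 ± 0.353, SD, n = 6). In set 4 L2d13 all neighbours in the order of means, which ran Cry2, Arntl, Clock and Per1, Cry1, Ciart, Per2, Npas2 and Per3, had overlapping ranges. In set 4 WT the order was Per1, Cry1, Arntl, Clock, Cry2, Ciart, Per2, Npas2 and Per3, and only Npas2 (1.45 to 2.90) stood clear of the next gene, Per3 (0.16 to 0.77). In set 2 L2d13 the order was Arntl, Cry1, Clock, Cry2, Per1, Npas2, Per2, Ciart and Per3, with gaps between Arntl and Cry1 and between Per2 and Ciart. In set 2 WT it was Per1, Arntl, Cry1, Clock, Cry2, Per2, Ciart, Npas2 and Per3, again with a gap before Per3.

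Arntl encodes BMAL1, the obligate activator of the loop. Its FPKM ran from 2.78 to 8.05 with a median of 6.51 in set 4 L2d13, against 5.76 to 8.72 with a median of 6.42 in set 4 WT. Within set 2 it ran from 9.09 to 10.1 with a median of 9.56 in L2d13, against 6.59 to 8.48 with a median of 7.19 in WT. The 6 set 2 L2d13 libraries were thus all above the 6 set 2 WT libraries, while the set 4 genotypes overlapped. In set 4 L2d13, replicates 7 and 8 were low, at 2.78 and 3.38 FPKM, and the other 4 lay between 6.15 and 8.05. The log2 difference, L2d13 minus WT, was -0.28 ± 0.16 (SE) in set 4 and 0.36 ± 0.16 in set 2, and neither was called (limma, adjusted p = 0.255 and 0.139). The set 2 difference passed when only the 2 groups compared were fitted (limma, adjusted p = 0.0223), a fit whose spread is not shared with set 4. Over both sets the difference was 0.04 ± 0.13, and it was negative with either scaling of the libraries (-0.09 with median-of-ratios, -0.08 with quantile normalization).

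Between the sets of L2d13 livers, by contrast, Arntl was called. Set 4 L2d13 had 5.76 ± 2.17 FPKM and set 2 L2d13 9.59 ± 0.353 (SD, n = 6 each), without overlap. The log2 difference, set 4 minus set 2, was -0.72 ± 0.16 (SE; limma, adjusted p = 0.0119). It missed the threshold with median-of-ratios scaling (-0.56, adjusted p = 0.0581) and with quantile normalization (-0.56, adjusted p = 0.0622). In WT the same difference was -0.08 ± 0.16, with 6.88 ± 1.22 FPKM in set 4 WT and 7.29 ± 0.652 in set 2 WT (SD, n = 6 each). The difference between these differences was -0.64 ± 0.23 and was not called (limma, adjusted p = 0.455). In set 4 WT, the 4 libraries with a high value per fragment had 5.76 to 6.46 FPKM, and the other 2 had 8.07 and 8.72.

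Clock, which encodes the usual partner of BMAL1, had no called difference in any comparison over all 24 libraries. It ran from 4.41 to 6.42 FPKM with a median of 5.91 in set 4 L2d13, against 3.88 to 8.63 with a median of 4.58 in set 4 WT. In set 2 the range was 5.75 to 7.14 with a median of 6.55 in L2d13, against 5.04 to 6.93 with a median of 5.68 in WT. The genotypes overlapped in both sets. Its log2 difference was 0.12 ± 0.13 (SE) in set 4, 0.13 ± 0.13 in set 2 and 0.12 ± 0.09 over both, all short of the threshold (limma, adjusted p = 0.587, 0.537 and 0.320). The set 4 WT libraries split for this gene as they did for Arntl, with 3.88 to 4.78 FPKM in the 4 of high value per fragment and 6.11 and 8.63 in the other 2. Within the 18 libraries, where set 4 WT is replicates 7 and 8, the difference was -0.32 in set 4 and -0.05 over both sets. With quantile normalization of all 24 libraries it was -0.00251 over both sets. Its sign thus varied with the libraries kept and with the scaling. Without set 4 WT replicate 8 the difference over both sets was called (0.19; limma, adjusted p = 0.0483).

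Npas2, the relative of CLOCK that can take its place beside BMAL1, had differences of opposite sign in the sets. Its FPKM ran from 0.36 to 1.85 with a median of 0.735 in set 4 L2d13, against 1.45 to 2.90 with a median of 1.86 in set 4 WT. Set 2 livers had 1.5 to 2.56 with a median of 2.43 in L2d13, against 1.14 to 2.24 with a median of 1.43 in WT. All 6 set 4 L2d13 libraries were below the WT mean of their set, and 5 of 6 set 2 L2d13 libraries were above theirs. The fall in set 4 was called, at a log2 difference of -0.63 ± 0.16 (SE) or 1.55-fold (limma, adjusted p = 0.0126), but not within the 18 libraries (-0.53, adjusted p = 0.165). The set 2 difference of 0.38 ± 0.16 was not called (limma, adjusted p = 0.111). Set 4 L2d13 was also lower than set 2 L2d13, with 0.940 ± 0.603 FPKM against 2.25 ± 0.416 (SD, n = 6 each) and a log2 difference of -0.79 ± 0.16 (SE; limma, adjusted p = 0.00677). The difference of the genotype effect between the sets was -1.01 ± 0.23 and did not pass (limma, adjusted p = 0.0762), although it did when set 4 L2d13 replicate 10 or 11 or set 2 WT replicate 6 was left out.

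Per1, a repressor that also answers quickly to hormonal and other signals, had the largest genotype difference of the members tested over both sets. In set 4 it ran from 2.45 to 7.74 FPKM with a median of 5.84 in L2d13, against 7.87 to 16.0 with a median of 12.9 in WT. Set 2 livers had 1.26 to 7.24 with a median of 4.38 in L2d13, against 4.06 to 20.98 with a median of 11.9 in WT. The set 4 genotypes did not overlap and the set 2 genotypes did, through 3 L2d13 libraries, replicates 3 (7.05), 4 (4.80) and 6 (7.24), above set 2 WT replicate 3 (4.06). Every one of the 12 L2d13 libraries was below the WT mean of its set. The log2 difference was -1.03 ± 0.33 (SE) in set 4 (limma, adjusted p = 0.0374) and -1.27 ± 0.33 in set 2 (limma, adjusted p = 0.0111). The set 4 call was lost in 8 of 24 fits that left out a library, with adjusted p up to 0.102, with no filter on low values (adjusted p = 0.0721) and within the 18 libraries (-1.27, adjusted p = 0.0995). The set 2 call was lost when only the 2 groups compared were fitted (limma, adjusted p = 0.0576). The genotype effects did not differ detectably between the sets (0.24 ± 0.46; limma, adjusted p = 0.922).

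Per2, the PER protein that carries much of the repression together with PER1, was lower in 11 of 12 L2d13 libraries than the WT mean of the set, but no difference was called. Its FPKM ran from 0.86 to 1.88 with a median of 1.17 in set 4 L2d13, against 1.25 to 4.40 with a median of 2.47 in set 4 WT. In set 2 it ran from 1.17 to 3.54 with a median of 1.64 in L2d13, against 0.99 to 8.18 with a median of 1.86 in WT. Both sets overlapped, and set 2 WT, in which replicate 6 stood far above the rest at 8.18, averaged 2.78 ± 2.69 (SD, n = 6). The log2 difference was -0.59 ± 0.27 (SE) in set 4, -0.19 ± 0.27 in set 2 and -0.39 ± 0.19 over both (limma, adjusted p = 0.149, 0.682 and 0.128). Without set 2 WT replicate 6 the set 2 difference was 0.11 and the set 4 difference was called (limma, adjusted p = 0.0401), as it was with only the 2 groups of set 4 fitted (adjusted p = 0.0430). With quantile normalization the difference over both sets was called too (-0.51, adjusted p = 0.0364).

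Per3, the PER protein least needed for the rhythm itself, was near the lower end of what could be measured. Its FPKM ran from 0.26 to 1.83 with a median of 0.765 in set 4 L2d13, against 0.16 to 0.77 with a median of 0.315 in set 4 WT. Set 2 had 0.24 to 0.68 with a median of 0.365 in L2d13, against 0.19 to 0.88 with a median of 0.305 in WT. It reached an FPKM of 1 in 1 of 24 libraries, set 4 L2d13 replicate 7, which was also the library with the lowest Arntl. The genotypes overlapped in both sets. An exact permutation test gave p = 0.0628 for the log2 difference of 0.38 in set 4 and p = 0.894 for that of 0.02 in set 2 (two-sided, 6 against 6 libraries, smallest possible p 0.00216). In set 4 WT the 4 libraries of high value per fragment had 0.20 to 0.77 FPKM and the other 2 had 0.16 and 0.17.

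Cry1, the stronger repressor of the cryptochromes and one of the latest genes of the cycle to peak, was called lower in set 4 and not in set 2. In set 4 it ran from 2.89 to 5.71 FPKM with a median of 3.53 in L2d13, against 6.37 to 9.66 with a median of 7.96 in WT, without overlap. Set 2 livers had 6.36 to 8.64 with a median of 7.65 in L2d13, against 4.97 to 9.40 with a median of 7.02 in WT, with overlap. The log2 difference was -0.91 ± 0.14 (SE), or 1.88-fold lower, in set 4 (limma, adjusted p = 0.000289) and 0.09 ± 0.14 in set 2 (limma, adjusted p = 0.724). The effects themselves differed, by -0.99 ± 0.20 (limma, adjusted p = 0.0368), and Cry1 had the 11th smallest p of the 16 genes called in that test. That call was lost in 16 of 24 fits without a library (adjusted p of 0.0104 to 0.0893, with the difference between -1.09 and -0.91), with either scaling, with no filter on low values and within the 18 libraries (-1.01, adjusted p = 0.0675). Set 4 L2d13, at 3.83 ± 1.06 FPKM, was also below set 2 L2d13, at 7.50 ± 0.830 (SD, n = 6 each), without overlap (-0.84 ± 0.14, SE; limma, adjusted p = 0.00175). Over both sets the fall was -0.41 ± 0.14 (limma, adjusted p = 0.0273), a call that was lost without set 4 L2d13 replicate 8 (adjusted p = 0.0525), without set 4 WT replicate 10 (0.0528) and within the 18 libraries (-0.27, adjusted p = 0.259).

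Cry2, the other cryptochrome repressor, rose in both sets. It ran from 4.75 to 7.08 FPKM with a median of 6.18 in set 4 L2d13, against 2.37 to 4.0 with a median of 3.63 in set 4 WT. In set 2 it ran from 5.60 to 6.44 with a median of 6.28 in L2d13, against 2.73 to 7.18 with a median of 3.68 in WT. All 12 L2d13 libraries were above the WT mean of their set, and the genotypes overlapped in set 2 only, where WT replicate 5 reached 7.18. The log2 difference was 0.70 ± 0.15 (SE), or 1.62-fold, in set 4 (limma, adjusted p = 0.0032) and 0.48 ± 0.15, or 1.39-fold, in set 2 (limma, adjusted p = 0.0299). The set 2 call was lost in 6 of 24 fits without a library (adjusted p up to 0.0751), with median-of-ratios scaling (0.32, adjusted p = 0.227) or quantile normalization (0.31, adjusted p = 0.251), with only the 2 groups fitted (adjusted p = 0.0921) and within the 18 libraries (0.41, adjusted p = 0.0676). The effects of the sets did not differ detectably (0.22 ± 0.21; limma, adjusted p = 0.851). The coefficient of variation of Cry2 was lowest in set 2 L2d13, at 4.94%, and highest in set 2 WT, at 38.8%.

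Ciart encodes CHRONO, a repressor that binds BMAL1 directly, and its printed window holds 3 E-boxes. It ran from 0.97 to 3.73 FPKM with a median of 1.77 in set 4 L2d13, against 0.85 to 6.77 with a median of 2.02 in set 4 WT. Set 2 livers had 0.35 to 1.16 with a median of 0.765 in L2d13, against 0.48 to 4.29 with a median of 1.95 in WT. Lower values than the WT mean of the set were found in 10 of 12 L2d13 libraries, with overlap in both sets. The log2 difference was -0.12 ± 0.30 (SE) in set 4, -0.75 ± 0.30 in set 2 and -0.43 ± 0.22 over both, and none was called (limma, adjusted p = 0.829, 0.0939 and 0.133). Leaving out set 4 WT replicate 9, at 6.77, gave 0.14 in set 4, and leaving out set 2 WT replicate 2, at 0.48, gave a called -0.95 in set 2 (limma, adjusted p = 0.0348). Set 4 L2d13 minus set 2 L2d13 was 0.77 ± 0.30 (SE; limma, adjusted p = 0.127), which passed with only these 2 groups fitted (adjusted p = 0.0376).

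**Figure D2:**
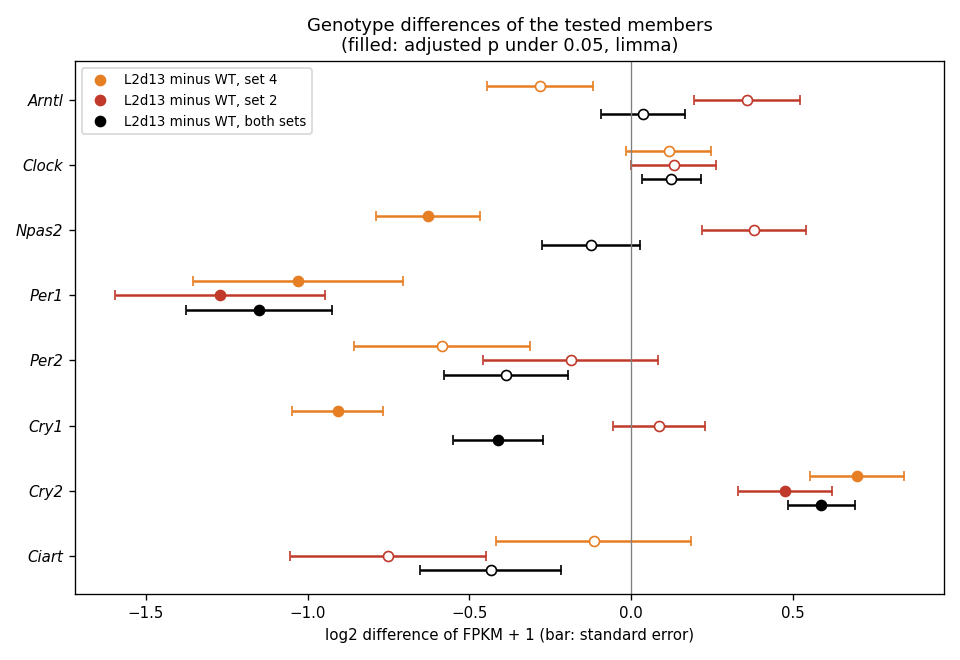
Log2 difference of FPKM + 1, L2d13 minus WT, of the 8 tested members in set 4, in set 2 and over both sets, with the standard error as bars and filled points for adjusted p under 0.05 (limma). Per1 and Cry2 lie on the same side of 0 in both sets, while the points of Arntl, Npas2 and Cry1 have opposite signs in the sets. None of these was called in set 2, and Arntl was called in neither set. Cry1 in set 2 lay within its standard error of 0 and turned negative with either scaling of the libraries.

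These counts are to be read against all genes. Against the shares already given over both sets, 1 of 8 tested members was called higher and 2 lower. In set 4, 1 was higher (10.3% of all genes) and 3 were lower (2.97%), while in set 2 it was 1 (13.0%) and 1 (2.13%). The genotype effect was higher in set 4 for no member (0.0285% of all genes) and lower for 1 (0.123%). Set 4 L2d13 was above set 2 L2d13 in no member (0.551% of all genes) and below it in 3. Set 4 WT was above set 2 WT in no member (0.0855%) and below it in no member (0.104%), and none had an unadjusted p under 0.05 (limma). The comparisons within set 4 and between the L2d13 sets share the set 4 L2d13 libraries, so their falls in Npas2 and Cry1 are not separate evidence. All tested genes together had a median of 0.12 on the log2 scale over both sets, and median-of-ratios scaling moved it by -0.12. As deposited, 2730 genes were called higher and 512 lower in L2d13. Median-of-ratios scaling gave 1215 higher and 1164 lower genes, and quantile normalization 1310 and 1079. Per1, Cry1 and Cry2 were called over both sets, in the directions given, under both of these scalings.

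The REV-ERB and ROR receptors, which act on Arntl, Npas2 and Cry1, form a list of 5 genes. Of these 4 were tested, and over both sets 2 were called higher and 1 lower, with a median of 0.11 beside 0.12 for all genes. The repressor Nr1d1 (REV-ERB alpha) ran from 16.1 to 42.8 FPKM with a median of 28.2 in set 4 L2d13, against 1.66 to 5.0 with a median of 2.04 in set 4 WT. In set 2 it ran from 3.20 to 7.43 with a median of 5.61 in L2d13, against 2.47 to 22.8 with a median of 4.15 in WT. No set 4 L2d13 library overlapped a set 4 WT library, at a log2 difference of 2.999 ± 0.36 (SE; limma, adjusted p = 1.28e-05), whereas set 2 overlapped at -0.11 ± 0.36. The effects differed between the sets by 3.11 ± 0.51 (limma, adjusted p = 0.00541). Over both sets Nr1d1 was higher by 1.44 ± 0.40 (limma, adjusted p = 0.00795), a call lost within the 18 libraries (0.92, adjusted p = 0.169). Its relative Nr1d2 was higher by 1.31 ± 0.19 in set 4 (limma, adjusted p = 0.000137) and just under the threshold over both sets (0.53 ± 0.20, adjusted p = 0.0495). That call was lost in 18 of 24 fits without a library, with no filter on low values (adjusted p = 0.0868), with median-of-ratios scaling (0.42, adjusted p = 0.146) or quantile normalization (0.41, adjusted p = 0.160) and within the 18 libraries (0.22, adjusted p = 0.557). The activator Rora was lower over both sets (-0.30 ± 0.09; limma, adjusted p = 0.0134).

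Clock genes other than the members whose genotype effect differed between the sets were singled out after their values were seen. Besides Cry1, the 16 genes of that test included Nr1d1, Nr1d2 (1.56 ± 0.27, SE; adjusted p = 0.00982) and Nfil3, which encodes the D-box repressor E4BP4 (-1.83 ± 0.34; adjusted p = 0.0212, all limma). Nfil3 had 16.6 ± 5.63 FPKM in set 4 L2d13, 38.2 ± 12.6 in set 4 WT, 40.7 ± 10.3 in set 2 L2d13 and 26.1 ± 8.64 in set 2 WT (SD, n = 6 each). Nfil3 thus stood lowest in the group where Arntl, Npas2 and Cry1 did. The D-box activator Dbp ran from 2.44 to 39.6 FPKM in set 4 L2d13, against 0.34 to 2.5 in set 4 WT, and from 0.88 to 1.49 in set 2 L2d13, against 0.56 to 7.75 in set 2 WT. It was called in set 4 (2.49 ± 0.44; limma, adjusted p = 0.000875), and its difference between the sets was 2.87 ± 0.62 (limma, adjusted p = 0.0603). Of the 4 tested genes of the PAR-bZIP and E4BP4 list (Dbp, Tef, Hlf and Nfil3) none was called over both sets by limma, with 1 at an unadjusted p under 0.05 and 1 called higher with a pseudocount of 0.1.

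**Figure D3:**
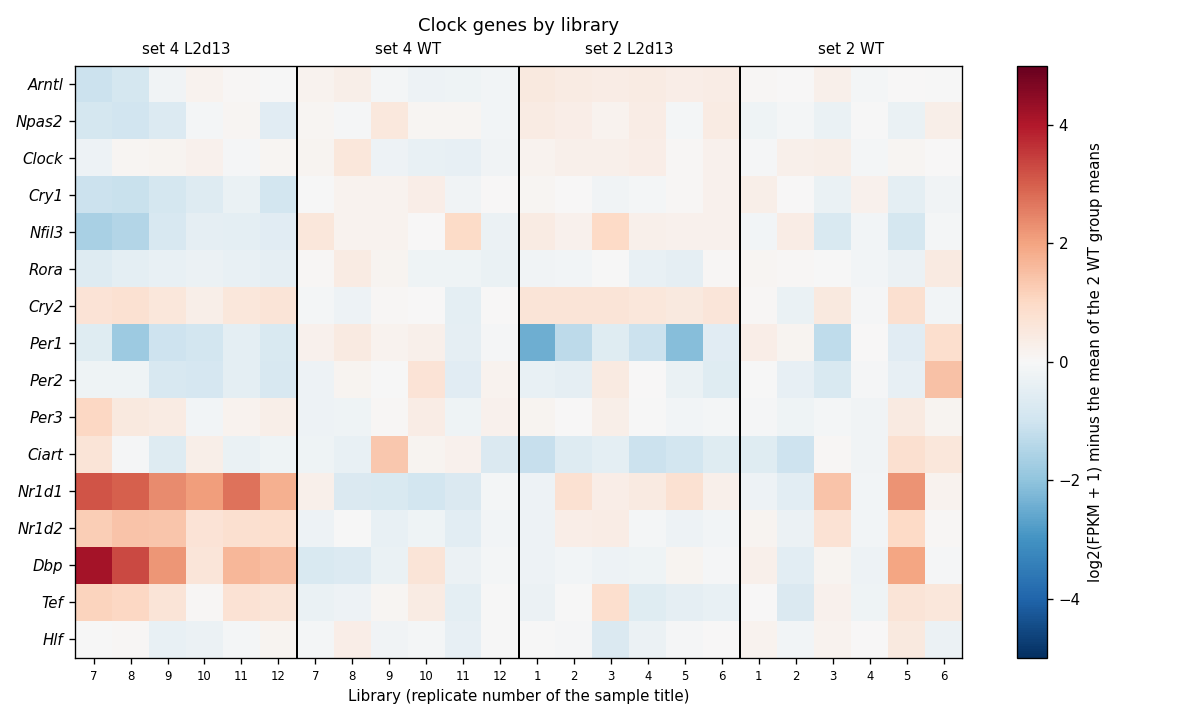
log2(FPKM + 1) of the members and of 7 other clock genes (Nfil3, Rora, Nr1d1, Nr1d2, Dbp, Tef and Hlf) in each of the 24 libraries, as the difference from the mean of both WT group means, with red for higher and blue for lower. In the set 4 L2d13 block Nr1d1, Nr1d2 and Dbp are red, and Cry1 and Nfil3 are blue, with the deepest values of Arntl, Nfil3 and Dbp in replicates 7 and 8.

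Within set 4 L2d13 the same libraries stood apart for several of these genes. Replicates 7 and 8 had the lowest Arntl (2.78 and 3.38 FPKM), Npas2 (0.45 and 0.36), Cry1 (2.95 and 2.89) and Nfil3 (9.16 and 10.2), and the highest Dbp (39.6 and 21.2), Nr1d1 (42.8 and 38.8) and Per3 (1.83 and 0.91). Replicate 10 had the highest Arntl (8.05) and Nfil3 (22.04) and the lowest Dbp (2.44) and Per3 (0.26). Npas2 (1.85) and Cry1 (5.71) were highest in replicate 11 instead, and Nr1d1 (16.1) was lowest in replicate 12. Other genes did not follow that order. Per1 had 7.13 FPKM in replicate 7 and 2.45 in replicate 8, and Clock had 4.41 and 5.96. Nr1d2 was higher in replicate 9 (11.8) than in replicate 7 (10.5), and Ciart had 3.73 in replicate 7 and 2.74 in replicate 10. The hours at which these livers were taken are not given, and differences in hour and in genotype cannot be told apart.

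Beyond the members, 40 clock genes in 6 lists were looked at, of which 37 were tested, and over both sets 6 were called higher and 3 lower, beside 25.9% and 4.86% of all genes. In set 4, 7 were higher and 5 lower, beside 10.3% and 2.97%, and in set 2 none was called by limma, with 7 at an unadjusted p under 0.05. Among other E-box factors the repressor Bhlhe40 (DEC1) fell (-0.81 ± 0.19, SE; limma, adjusted p = 0.00265), and Tipin, a partner of Timeless at replication forks, rose by 0.28 ± 0.07. Of 9 kinase genes 1 was called, the casein kinase subunit Csnk2a1 (0.28 ± 0.07), and of 7 genes of ubiquitin control 2. Of these Usp2, a deubiquitinase of clock proteins, fell to 2.69 ± 0.644 FPKM in L2d13, against 5.95 ± 3.17 in WT (SD, n = 12 each), in 12 of 12 libraries, and Ddb1, a ligase adaptor, rose by 0.62 ± 0.17. Of 10 coactivators and corepressors 1 was called, the PER-binding protein Nono (0.38 ± 0.09). The calls of Tipin, Csnk2a1 and Nono were lost with median-of-ratios scaling, those of Tipin and Csnk2a1 with quantile normalization, and those of Tipin and Ddb1 within the 18 libraries.

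Output genes and the signals that reach Per1 are next, over both sets, where 25.9% of all genes were called higher and 4.86% lower. Of 8 tested rhythmic liver outputs 1 was called higher and 3 lower (median -0.37, beside 0.12 for all genes): the deadenylase-related phosphatase Noct (-2.31 ± 0.27, SE), the G protein regulator Rgs16 (-1.13 ± 0.38) and the elongase Elovl3 (-1.12 ± 0.27) fell, and Por, the electron donor of cytochromes P450, rose (0.80 ± 0.12). Per1 is a known target of the glucocorticoid receptor and of CREB. Of 7 glucocorticoid-induced genes 3 were lower (median -0.49), namely Tsc22d3 (-1.35 ± 0.26), the phosphatase Dusp1 (-1.19 ± 0.25) and Zbtb16 (-0.94 ± 0.25). Of 8 tested CREB and serum response genes 3 were lower (median -0.48), namely Jun (-0.75 ± 0.23), Ier2 (-0.58 ± 0.16) and the CREB relative Crem (-0.50 ± 0.16). Tsc22d3 and Dusp1 were below the WT mean of the set in 12 of 12 L2d13 libraries, as Per1 was. In the same list Fkbp5 (0.25 ± 0.22) and Sgk1 (0.24 ± 0.21) were not called, and were above that mean in 9 and 7 of 12. In set 4 the glucocorticoid-induced list and the CREB and serum response list each had 3 genes called lower, beside 2.97% of all genes. Their medians there were -0.62 and -0.75. In set 2 neither list had a gene called by limma (medians -0.41 and 0.01), with 3 of each at an unadjusted p under 0.05. Per1 was called in both sets over all 24 libraries. Whether these signals bear on Per1 here was not tested. Of 6 temperature-linked genes 3 were higher, beside 25.9% of all genes (median 0.37), namely the cold-inducible RNA-binding proteins Cirbp (0.75 ± 0.16) and Rbm3 (0.38 ± 0.12) and the chaperone Hspa8 (0.36 ± 0.11). All of these calls are from limma (adjusted p under 0.05 over all genes). Those of Rgs16, Zbtb16, Ier2, Rbm3 and Hspa8 over both sets were lost within the 18 libraries. The call of Rgs16 was also lost with no filter on low values (limma, adjusted p = 0.0503). It was lost too without set 4 WT replicate 9 (0.0512) or 10 (0.0508). With median-of-ratios scaling 1 temperature-linked gene was called, Rbm3 (0.24, adjusted p = 0.144) and Hspa8 (0.22, adjusted p = 0.189) being lost, and with quantile normalization Rbm3 was lost (0.28, adjusted p = 0.0967).

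**Figure D4:**
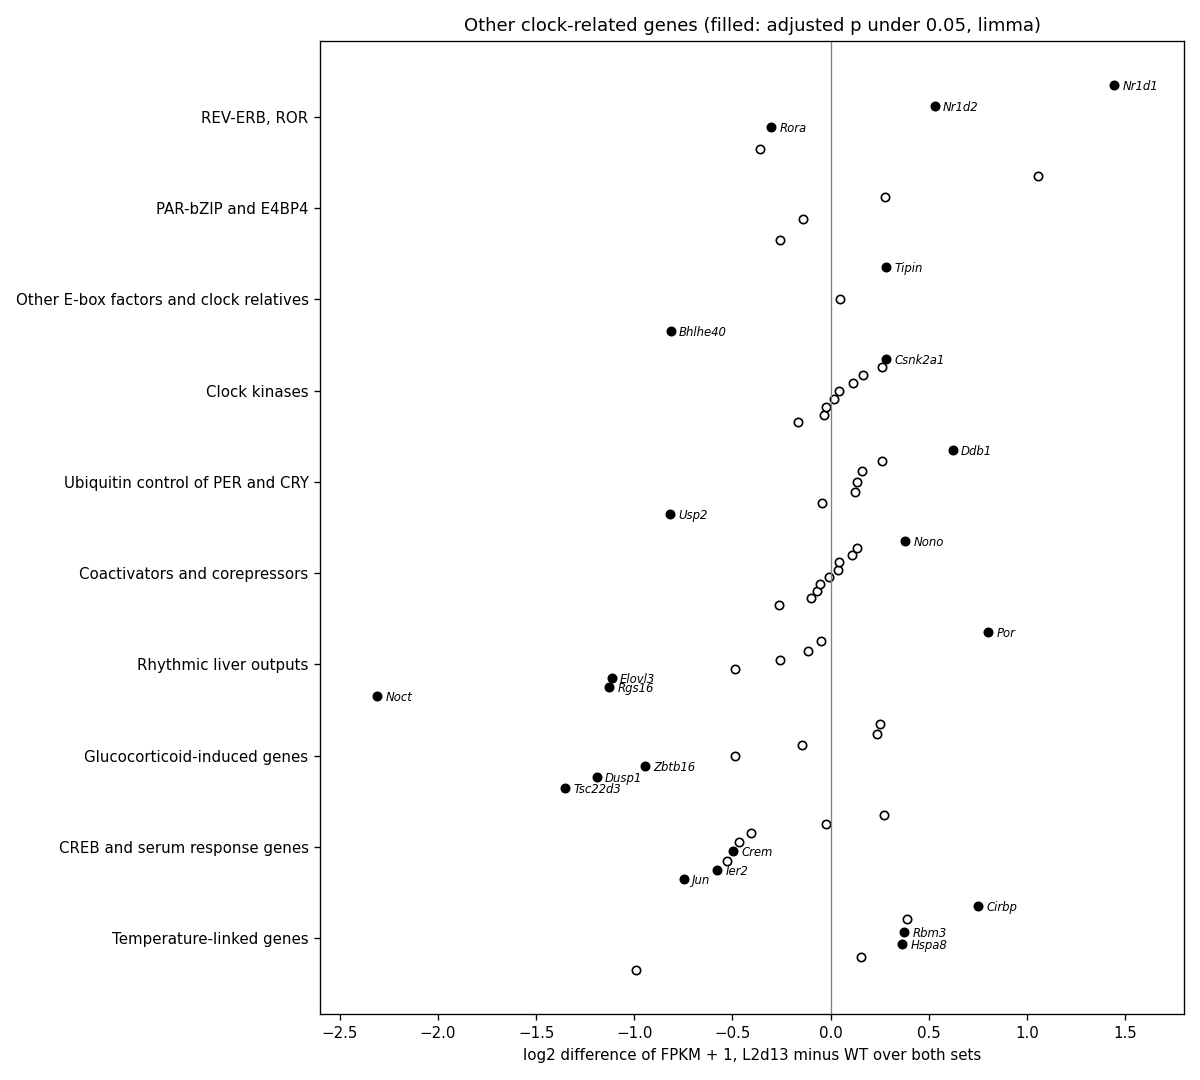
Log2 difference of FPKM + 1, L2d13 minus WT over both sets, of the tested genes of 10 clock-related lists, 1 point per gene, filled and named where the adjusted p was under 0.05 (limma). Noct, at -2.31, lies farthest to the left and Nr1d1, at 1.44, farthest to the right.

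Libraries of 1 group also differ among themselves, and how the members varied together there was described by correlating their deviations from the group means of log2(FPKM + 1) over the 24 libraries. Of 36 pairs 3 passed a permutation test adjusted over the pairs, while by Spearman's rho none did, with 5 at an unadjusted p under 0.05. Arntl and Clock had r = 0.55 (rho 0.66; p = 0.00244 and 0.00362, adjusted 0.0293 and 0.0790), with r between 0.47 and 0.96 within the 4 groups. Arntl and Per3 ran opposite, at r = -0.67 (rho -0.52; p = 0.00235 and 0.0259, adjusted 0.0293 and 0.187, permutation), with -0.89 in set 4 L2d13, -0.67 in set 4 WT, 0.43 in set 2 L2d13 and -0.01 in set 2 WT. Per3 and Cry2 had r = 0.58 (rho 0.62; p = 0.00214 and 0.00439, adjusted 0.0293 and 0.0790, permutation), with 0.66 to 0.72 in all 4 groups. Without the 2 libraries farthest from the median of the first gene these r were 0.65, -0.54 and 0.52. Within the 18 libraries no pair passed, and r was 0.46, -0.69 and 0.64. Npas2 and Cry1 reached r = 0.97 in set 4 L2d13 but 0.55 over all groups, which did not pass (permutation p = 0.0167, adjusted 0.150). Of 24 fits that left out a library, the call of Arntl and Clock was lost in 7 (r between 0.48 and 0.67 over all fits), that of Arntl and Per3 in 8 (-0.73 to -0.47) and that of Per3 and Cry2 in 9 (0.47 to 0.66). Without set 4 L2d13 replicate 7 the adjusted p of these pairs was 0.176, 0.287 and 0.0702, and without set 2 WT replicate 5 that of Per3 and Cry2 was 0.181 (permutation).

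**Figure D5:**
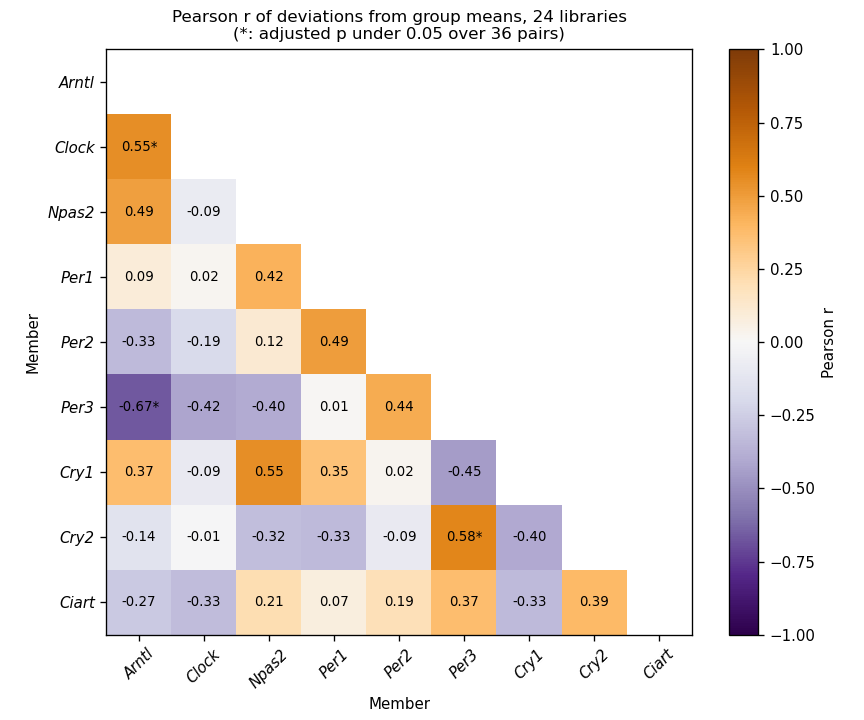
Pearson r between the members of their deviations from the group means of log2(FPKM + 1) over 24 libraries, with an asterisk where the permutation p adjusted over 36 pairs was under 0.05. The darkest cell is that of Arntl and Per3, at -0.67, and the other 2 starred cells are Arntl with Clock (0.55) and Per3 with Cry2 (0.58).

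The same deviations were compared between each member and all tested genes over 24 libraries, as a description. All genes of 1 library share its scaling and depth, and the part of this in r was not tested. For Arntl the lowest r was that of Dbp (-0.77), followed by Csrp3 (-0.64) and C2cd4d (-0.57), and the highest were those of Cdkn2aipnl (0.73), the adhesion molecule Vcam1 (0.70) and Lgalsl (0.70). For Per3 the highest r were those of Dbp (0.85), Tef (0.77) and Wdr5b (0.76), while Shld2 (-0.82), Cdkn1a (-0.73) and Arntl (-0.67) were lowest. Per3 was below the filter on low values. Set 4 L2d13 replicate 7 had both the highest Per3 (1.83 FPKM) and the highest Dbp (39.6). Whether Dbp or Tef acts on Per3 here was not tested. Npas2 went with Sdsl (0.78), the kinase Pfkfb2 (0.75) and Rad54l2 (0.69), and Per1 with Carmil1 (0.79), the factor Cebpd (0.78) and Zfp420 (0.77). Lowest were Erlin1 (-0.67), Rasal2 (-0.66) and Klhdc7a (-0.65) for Npas2, and Nat8f2 (-0.78), Agk (-0.78) and Pacrgl (-0.72) for Per1. Cry1 had its highest r with Inmt (0.72), Ppia (0.72) and Brk1 (0.71) and its lowest with Lgals8 (-0.68), Mpdz (-0.67) and Recql (-0.66). Cry2 had them with Rnf152 (0.87), Kank1 (0.87) and Trim14 (0.82), and with Vmp1 (-0.85), Tra2b (-0.82) and Lurap1l (-0.79). For Ciart they were Chd1l (0.78), Nab2 (0.76) and Dcaf4 (0.74) at the top, and Szrd1 (-0.79), Dcun1d5 (-0.77) and Adal (-0.76) at the bottom. Clock reached 0.96 with Usp47 and 0.94 with Cep350 and Cdc5l, and -0.85 with Csrp3, -0.84 with Isoc2b and -0.84 with Gamt. Per2 reached 0.89 with Cenpc1 and 0.88 with Ccnt2 and Grk1, and -0.83 with Itih4, -0.75 with Snx7 and -0.74 with Prr16.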

How the data were processed

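RNA sequencing of 24 liver libraries on the BGISEQ-500 was analysed from the deposited table. Its FPKM values are those the authors computed. Per the submitters' processing notes, the tools were RSEM, HISAT and Bowtie2 (no versions stated) and the genome was GRCm38.p5. FPKM holds no counts, so depth is unknown and no interval or floor is given. Columns of no sample numbered 0, and no library pair held identical values (0 pairs). Symbols came from the RefSeq table of GRCm38.p6, which matched 18040 of 18171 identifiers, and promoter sequences from RefSeq on the same build.

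The 10532 genes with FPKM of 1 or more in 6 or more libraries were tested on log2(FPKM + 1), with a pseudocount of 1, by limma 3.58.1 in R 4.3.3 with a mean-variance trend. The genotype over both sets came from additive terms for genotype and set. The other contrasts came from 1 mean per group. All tests were two-sided with Benjamini-Hochberg adjustment over all tested genes. Per3, below the filter, was tested by exact permutation (924 arrangements), and pairs of members by 100000 permutations within groups, so that the smallest p was 1e-05. FPKM per fragment was compared between libraries through 129 low genes, and the 6 libraries at 1.03 or more of the common value form a class. Alternatives were a pseudocount of 0.1, no filter, median-of-ratios and quantile scaling, no trend, only the 2 groups compared, a replicate block, the 18 libraries and leaving out each library. Procedures were tested on simulated data. Plots used matplotlib 3.10.9, and tables scipy 1.17.1, pandas 2.3.3 and numpy 2.4.6 under Python 3.11.15.

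The members and the 10 other lists were chosen with earlier results of these data known. All members are named; of each list, the called genes with the smallest p over both sets, at most 4, are named, and for likeness the 3 highest and 3 lowest genes. Genes named for the difference between the sets lie outside that rule, as do Fkbp5 and Sgk1. Some genes of the lists are not reported here, and counts still include them.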

Additional observations from a re-analysis of the deposited data

Results flagged for a closer look

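In 36 groups of 6 libraries (9 members in 4 groups), 2 had a library far from the other 5 by Dixon's criterion, which chance alone meets in about 1 group in 20. Npas2 was high in set 4 WT replicate 9, at 2.90 FPKM, and Per2 in set 2 WT replicate 6, at 8.18 FPKM. Both libraries are among the 6 with a high value per fragment, whose part in these levels was not tested. The genotype effect on Cry1 differed between the sets, at -0.99 on the log2 scale (set 4 minus set 2, limma, adjusted p = 0.0368). That call was lost in 16 of 24 fits without a library and in 5 of 7 other settings.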

How the results depend on the processing

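Per1 and Cry2 kept their calls over both sets under every alternative run. Between the L2d13 sets, Cry1 and Npas2 did so too, Arntl was lost with both scalings (adjusted p = 0.0581 and 0.0622, limma), and each fit without a library called 3 members. The calls counted in set 2 were 1 instead of 2 with median-of-ratios scaling, quantile normalization, the 18 libraries, the replicate block and only the 2 groups compared. The call that remained was Per1, except with only the 2 groups compared. There Per1 and Cry2 were both lost and Arntl was called instead. In set 4 they were 2 instead of 4 within the 18 libraries, of which 2 are set 4 WT. In the difference between the sets they were 0 instead of 1 with no filter, both scalings, the 18 libraries and the replicate block. Called pairs of members were 5 with median-of-ratios scaling, 6 with quantile normalization and 0 within the 18 libraries, instead of 3. Leaving out 1 library at a time gave 2 to 4 calls over both sets, 1 to 2 in set 2, 3 to 5 in set 4, 0 to 2 in the difference, 0 to 0 between the WT sets and 0 to 4 pairs.

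Signs that turned belong to differences that were not called. Over both sets these were Arntl (-0.0901 median-of-ratios, -0.0818 quantile), Clock (-0.00251 quantile, -0.0513 in the 18 libraries) and Npas2 (0.10 in the 18). In set 2 they were Clock (-0.0262 and -0.0383 with the scalings), Cry1 (-0.0731 and -0.0794) and Per3 (-0.0381 with median-of-ratios), and in set 4 Clock (-0.32) and Ciart (0.24) in the 18. In the difference of effects they were Clock (0.0583 and 0.0715 with the scalings) and Per1 (-0.0382 in the 18). Between the sets they were Cry2 in L2d13 (0.13 and 0.15 with the scalings) and, in WT, Arntl (0.0062 and 0.0026 with the scalings, 0.17 in the 18), Clock (0.26) and Ciart (-0.10, both in the 18). Without single libraries the ranges that crossed 0 were Per2 in set 2 (-0.33 to 0.11), Ciart in set 4 (-0.27 to 0.14), Clock in the difference (-0.0809 to 0.12), Cry2 between the L2d13 sets (-0.0602 to 0.038), Per3 in set 2 (-0.0374 to 0.11) and, between the WT sets, Per1 (-0.0636 to 0.36), Per2 (-0.0890 to 0.35) and Ciart (-0.12 to 0.31). Per3 in set 4 ranged from 0.25 to 0.48, with exact p between 0.0238 and 0.130. The causes were not tested.

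All-gene calls moved by over 1.5 times in some settings. They were 3242 over both sets (2057 within the 18 libraries, of which 1554 higher), 1588 in set 2 (763 and 827 with the scalings, 913 with only the 2 groups), 1403 in set 4 (220 higher and 299 lower within the 18), 16 in the difference (6 with no filter, 67 within the 18), 638 between the L2d13 sets (301 and 345 with the scalings, 1007 within the 18) and 20 between the WT sets (1 within the 18, 7 with only the 2 groups). Leaving out 1 library gave 2733 to 3846 calls over both sets, 972 (without set 2 WT replicate 4) to 1824 in set 2, 833 (without set 4 WT replicate 9) to 2434 (without set 4 WT replicate 8) in set 4, 6 to 19 in the difference, 294 (without set 4 L2d13 replicate 7) to 883 between the L2d13 sets and 7 to 82 (without set 4 WT replicate 8) between the WT sets, so the shares of all genes called move with single libraries. The higher and lower calls were 373 and 390 in set 2 and 631 and 639 in set 4 with median-of-ratios scaling, as against 1364 and 224, and 1090 and 313, as deposited. The replicate numbers share only a number: of 12 same-numbered pairs 4 correlated over 0.1 (range -0.60 to 0.26) and 1 library correlated best with its own number. As a block they gave 2526, 807, 679 and 9 calls for both sets, set 2, set 4 and the difference. The named genes that were not called with the block were Cry1 (adjusted p = 0.0808) and Nr1d2 (0.116) over both sets, Cry2 in set 2 (0.0795), Per1 in set 4 (0.0780) and Cry1 in the difference (0.193, all limma). Depth is unknown, and Per3, Ciart, Npas2 and Per2, with FPKM near 1, are measured least well.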
